A study of Mus musculus with 8 samples.

Results

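The genes described here encode proteins that bind pre-mRNA while it is spliced: SR proteins, heterogeneous nuclear ribonucleoproteins (hnRNPs) and subunits of splicing factor 3. They were chosen by symbol, as every row of the expected-count table whose name begins with Srsf, Sfrs or Sf3a or Sf3b and a digit, or with Hnrnp or Hnrp. Of 40 such rows among 22549 genes, 39 had a count above 0 and were kept, namely 11 SR, 20 hnRNP and 8 SF3 genes. Srsf12 had no count in any library. Sfrs18 is the older symbol of Pnisr, Hnrpdl of Hnrnpdl and Hnrpll of Hnrnpll. Classes follow the symbol alone, so Sfrs18 is counted among the SR genes by its name.

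The cells sequenced were invariant natural killer T (iNKT) cells, a T cell lineage that uses a nearly fixed receptor to recognise lipids held by CD1d. There were 4 libraries of iNKT cells from skin and 4 from spleen, all from CCR10+/EGFP mice, which carry EGFP at 1 Ccr10 allele; no library without that allele was analysed here. The labels give no age, sex or treatment, and they do not say whether a numbered library is a mouse of its own. Each p-value is therefore set against the spread between libraries, part of which may be technical. The tests estimate that spread for each gene in part from the other genes tested. Levels are counts scaled to a common library total (CPM), and log2 fold changes are skin over spleen.

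In splicing, SR proteins bind exons through RNA recognition motifs and recruit the spliceosome through tails rich in arginine and serine. The hnRNPs coat nascent RNA and often mask splice sites, so the balance between the families helps to set which exons are kept. The SF3A and SF3B complexes belong to the U2 small nuclear ribonucleoprotein, which binds the branch point of an intron. Lymphocytes change exon use on activation: Hnrnpll (here Hnrpll) promotes skipping of variable exons of Ptprc, the gene of the leukocyte antigen CD45. Several SR genes limit their own level by splicing in exons that lead to decay of the transcript. The deposited counts are per gene and do not separate such isoforms.

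Total expected counts were 7191131 to 9791973 per library. Skin libraries held 5302 to 6012 genes with a count and spleen libraries 6415 to 10094. The T cell receptor subunit Cd3e stood at 399 to 958 CPM in skin and 469.7 to 571 CPM in spleen. Cd3d was lower in skin, at 384 to 583 CPM beside 857 to 1390 CPM (edgeR adjusted p = 0.025). Cd3g ranged from 979 to 1081 CPM in the skin libraries and from 1139 to 1391 CPM in the spleen libraries, without overlap (edgeR adjusted p = 0.451). Of the 12 iNKT and T cell markers tested, 0 were called higher and 2 lower in skin, Cd3d and Klrb1c. Of all genes tested, 1.85% were called higher and 3.58% lower. The lineage factor Zbtb16 was above 0 in all 8 libraries, while Klrb1c, which encodes NK1.1, was at 0 in the 4 skin libraries. Klrb1c thus entered the test through spleen alone, and 182 of the 231 tested genes at 0 in all skin libraries were called lower. Of 12 keratinocyte markers, 11 had a count, and their summed level was 273 to 1074 CPM in skin and 0 to 29.5 CPM in spleen. Krt14 was at 0 in all 4 spleen libraries and in skin replicates 2 and 4. Perp was above 0 in all 4 skin libraries and called higher in skin (edgeR adjusted p = 0.0328). It was at 0 in all 4 spleen libraries and so entered the test through skin alone. Of 6 B cell markers, 4 had a count, summing to 0 in skin and 31.5 to 166 CPM in spleen, and Pax5 was at 0 throughout. Erythroid markers (3 of 4 with a count) summed to at most 0.424 CPM in skin and to 111 to 228 CPM in spleen. Myeloid and dendritic markers (7 of 10 with a count) summed to 16.3 to 315 CPM in skin and 40.9 to 195 CPM in spleen, fibroblast markers (3 of 6) to 0 to 168 CPM and 0, and mast cell markers were at 0. Genes of the splicing machinery are transcribed in nucleated cells in general, and the part of their RNA in the results was not tested.

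None of the 39 genes passed the test between the tissues. Of the 39 genes, all entered the test (edgeR's quasi-likelihood fit over 6920 genes) and at a Benjamini-Hochberg adjusted p under 0.05 the skin level was called higher for 0 and lower for 0. Of all genes tested, 5.43% were called, 1.85% as higher and 3.58% as lower in skin. At an unadjusted p under 0.05 there were 6, or 15.4%, beside 12.4% of all genes. DESeq2 called 0, and limma-voom called 2, Hnrnpab higher and Hnrnpu lower. The fitted log2 fold changes of the 39 genes ran from -3.02 to 1.99 with a median of -0.04, and the median of all genes tested was -0.29. Among genes with a count in all 8 libraries, the median was 0.12 for 28 members and 0.03 for all 2237 such genes. Of the 39, 18 were above 0 and 21 below. A missed threshold does not show equal levels. The intervals below give the range of differences under the fitted spread, which draws in part on the other genes tested.

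**Figure D1:**
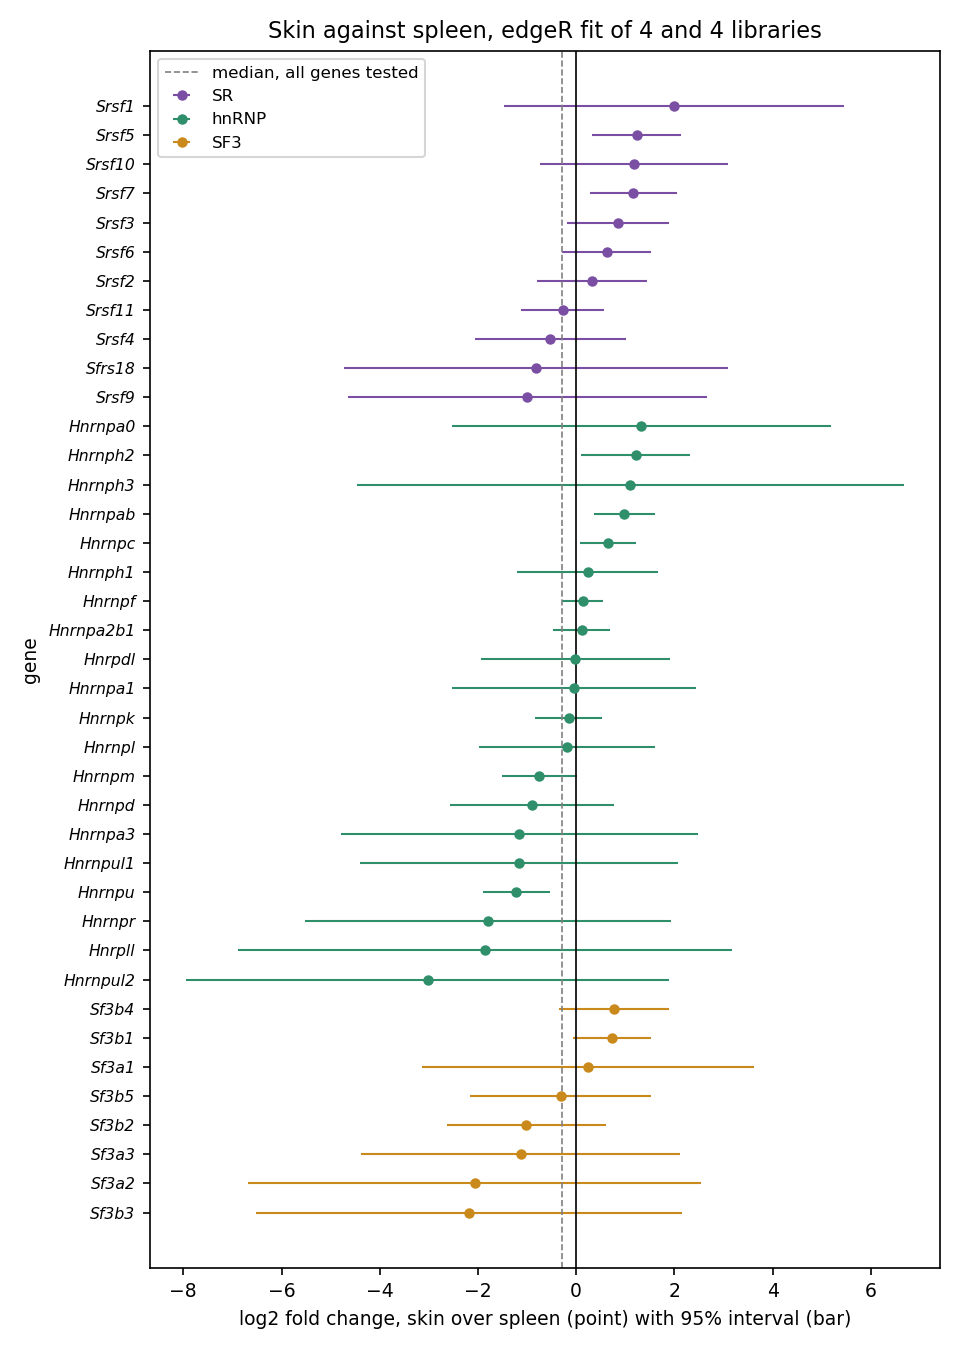
Log2 fold change of each of the 39 genes, skin over spleen, with its 95% interval from the edgeR fit, by class (4 libraries per tissue); the dashed line is the median of all genes tested, -0.29. Most intervals cross 0, and none of the genes passed the adjusted threshold.

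The classes lay differently around 0 without a called gene in any of them. Of the 11 SR genes, 7 had a log2 fold change above 0 and 4 below, with a median of 0.62. Of the 20 hnRNP genes, 8 were above and 12 below, with a median of -0.10, and of the 8 SF3 genes 3 were above and 5 below, with a median of -0.67. The difference between classes was not tested.

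Summed over the class, SR transcripts stood at 4784, 2424, 2934 and 4023 CPM in skin replicates 1 to 4. In spleen replicates 1 to 4 they stood at 2288, 2024, 2299.9 and 2851 CPM. Skin replicates 1, 3 and 4 were above every spleen library, and skin replicate 2 lay within the spleen range. The hnRNP sum was 6002 to 8309 CPM in skin and 5764 to 7833 CPM in spleen, and the SF3 sum 1824 to 2603 and 1843 to 2636 CPM, so both overlapped over most of their range. The share of all counts taken by the 39 genes was 1.19% ± 0.174 for skin against 1.17% ± 0.0678 for spleen (mean ± SD over 4 libraries). In such bulk libraries, fewer cells with a transcript and less transcript per cell cannot be told apart.

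**Figure D2:**
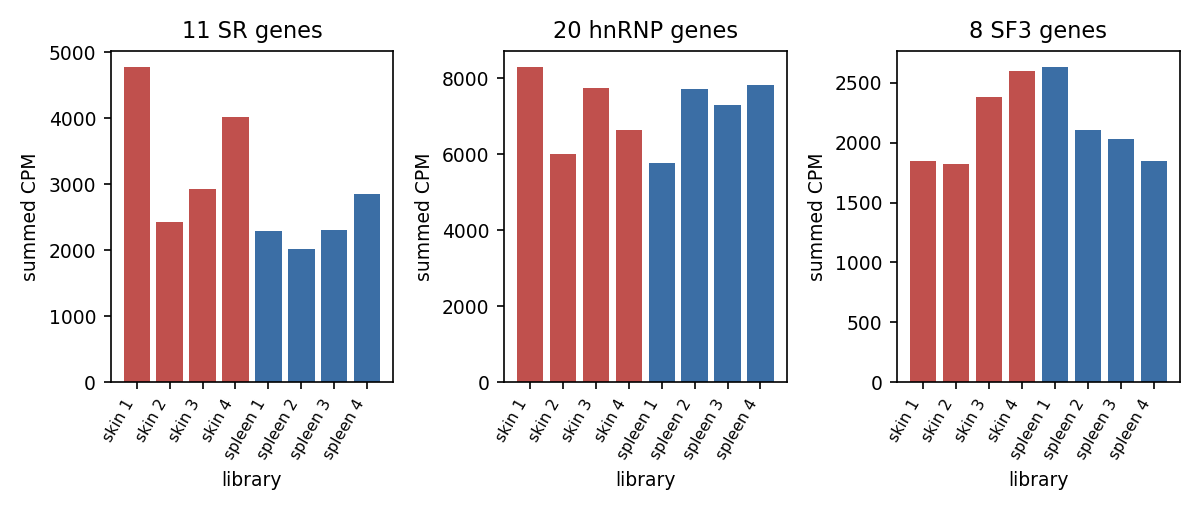
Summed CPM of the 11 SR, 20 hnRNP and 8 SF3 genes in each of the 8 libraries (bars; skin red, spleen blue). The SR sum is highest in skin replicates 1 and 4, at 4784 and 4023 CPM, while the hnRNP and SF3 sums overlap between the tissues.

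All 39 genes had a count in every spleen library. In skin, 34 to 36 of them had a count in a library, and 16 of 156 values (10.3%) were 0. For comparison, a skin library lacked 29.4% ± 3.63 of all genes that entered the test, and a spleen library lacked 11.4% ± 10.2 (SD, n = 4 each). The zeros fell on 11 genes. Sfrs18, Srsf9, Hnrnpa0, Hnrnpr, Sf3a1 and Sf3a3 were at 0 in 1 skin library each, and Hnrnph3, Hnrnpul2, Hnrpll, Sf3a2 and Sf3b3 in 2 each. The other 28 genes (71.8%) had counts in all 8 libraries, as did 32.3% of all genes tested. Among genes at 100 to 200 CPM in the other 3 libraries of the tissue, 15.2% of skin values and 5.71% of spleen values were 0. In the heat map of levels, Hnrnpf, Hnrnpa2b1 and Hnrnpk are bright across all columns, and the zeros scatter over skin rows of low to middle level.

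**Figure D3:**
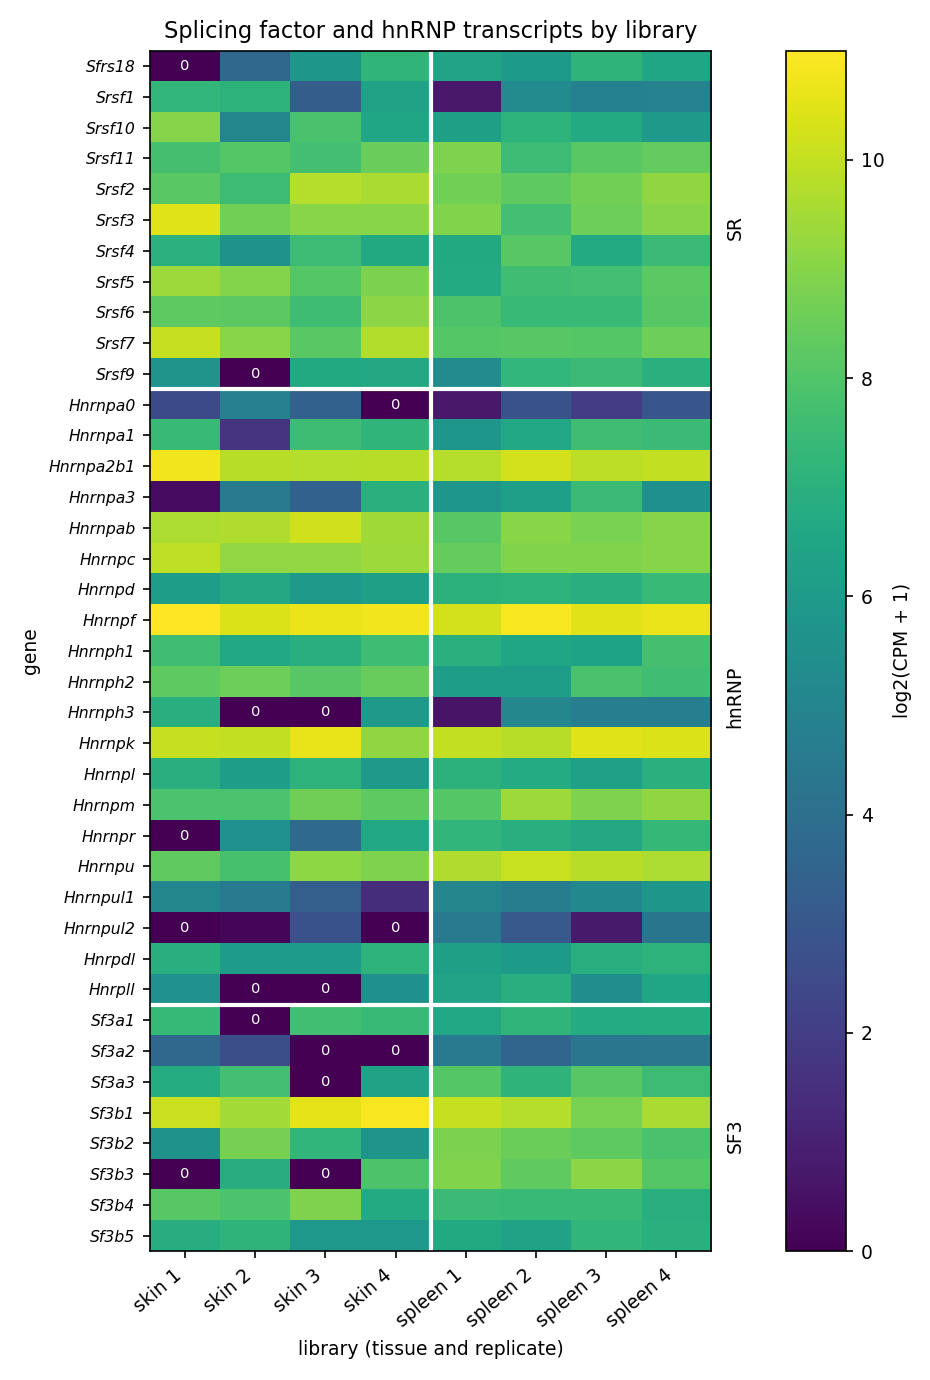
Level of each of the 39 genes in each library as log2(CPM + 1), grouped by class (rows) and tissue (columns); a 0 marks a library with no count. The 16 zeros all lie in skin columns; levels of different genes are not corrected for transcript length.

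Among the SR genes, Srsf7 and Srsf5 had the smallest p-values. Srsf7, whose product also carries mRNA to the cytoplasm, stood at 1051, 529, 292 and 844 CPM in skin replicates 1 to 4. In spleen replicates 1 to 4 it stood at 275, 280.0, 276 and 379.9 CPM. Skin replicates 1, 2 and 4 were above all spleen libraries, and skin replicate 3 was below spleen replicate 4. The log2 fold change was 1.17 (95% interval 0.29 to 2.04; edgeR adjusted p = 0.166).

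Srsf5, a regulator that was chosen for display after its values were seen, stood at 660.3, 500.5, 275 and 453 CPM in skin. Its spleen values were 106, 197, 207 and 296 CPM. The tissues overlapped only in that skin replicate 3 fell below spleen replicate 4. The fitted change was 1.23 ± 0.40 on the log2 scale (SE; edgeR adjusted p = 0.154).

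Srsf3, a small SR protein, stood at 1420.0, 403, 519.8 and 527 CPM in skin and at 482, 209, 382 and 508 CPM in spleen. Skin replicate 1 stood far above the other 7 libraries, which overlapped. The log2 fold change was 0.86 (95% interval -0.18 to 1.90) with all libraries and 0.26 without skin replicate 1. Srsf2, which binds exonic enhancers and also acts in transcription, stood at 289, 187, 866 and 778 CPM in skin and 409, 307, 402 and 577 CPM in spleen. Its 2 lowest and 2 highest values were all in skin, and without skin replicate 3 its fold change was -0.05.

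The other SR genes overlapped between the tissues. Srsf1, the founding member of the family, averaged 94.9 ± 65.7 CPM over the skin libraries against 23.9 ± 16.2 CPM over the spleen libraries (SD, n = 4 each), with skin replicate 3 at 8.51 CPM. Its log2 fold change of 1.99 had a 95% interval from -1.48 to 5.45. Srsf10, which acts as a repressor when dephosphorylated in heat shock, ranged from 32.4 to 509.8 CPM in skin and from 60.6 to 136 CPM in spleen. Srsf6 stood at 337 ± 149 and 218 ± 55.0 CPM and Srsf11 at 263 ± 68.4 and 318 ± 118 CPM. Srsf4 stood at 116 ± 56.8 and 168 ± 85.8 CPM, Srsf9 at 62.9 ± 48.2 and 125 ± 62.1 CPM, and Sfrs18 at 53.9 ± 67.0 and 94.6 ± 33.9 CPM. In GENCODE M21, 63.8% of the 75-base stretches of Srsf4 also occur in the predicted gene Gm12992, so part of its reads may be shared. How far this affects its level is uncertain. The annotation behind the deposited counts is not given, and read pairs can tell genes apart where a single stretch cannot. For Srsf2, Srsf3, Srsf5 and Srsf10 the shares found in other genes were 29.0%, 25.2%, 18.2% and 10.4%.

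Of the hnRNP genes, Hnrnpu came closest to the threshold. It encodes a nuclear matrix protein that binds RNA and chromatin. It stood at 313, 221, 555 and 462 CPM in skin replicates 1 to 4 and at 832, 1073, 897 and 811 CPM in spleen replicates 1 to 4. The highest skin value lay below the lowest spleen value. The log2 fold change was -1.22 (95% interval -1.90 to -0.54; edgeR adjusted p = 0.0515). Under a stricter filter on low counts the adjusted p was 0.0497, with limma-voom it was 0.0293, and with 1 library left out it was 0.0645 to 0.137. Over all alternatives it ran up to 0.499, with DESeq2.

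The tissues were fully separate for 7 of the 39 genes (17.9%), beside 19.5% of all genes tested. These were Hnrnpab, Hnrnpc and Hnrnph2, above spleen in all 4 skin libraries (6.11% of all genes tested lay this way), and Hnrnpu, Hnrnpd, Hnrnpr and Sf3b3, below it (13.4%). They were 6 of the 20 hnRNP genes (30.0%), 1 of the 8 SF3 genes (12.5%) and 0 of the 11 SR genes, and the difference between the classes was not tested.

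**Figure D4:**
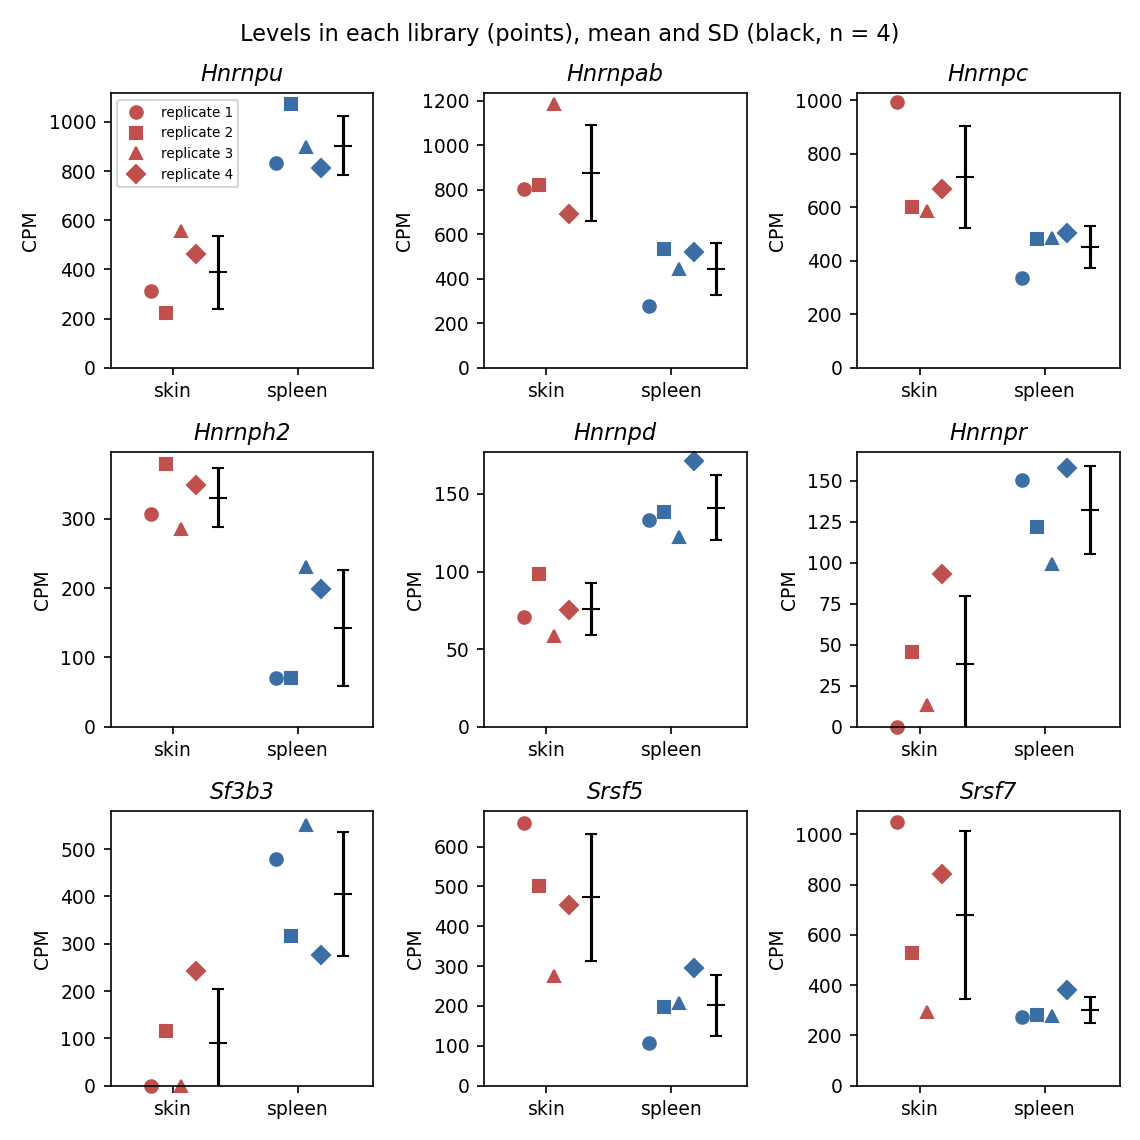
CPM in each library (points, by tissue and replicate) with mean and SD (black, n = 4; bars are cut at 0) for the 7 genes whose tissues do not overlap and for Srsf5 and Srsf7, whose tissues overlap in skin replicate 3. Hnrnpu, Hnrnpd, Hnrnpr and Sf3b3 lie lower in skin, and Hnrnpab, Hnrnpc and Hnrnph2 higher.

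Hnrnpab, an RNA-binding protein of messenger ribonucleoproteins, stood at 804, 823, 1187 and 692 CPM in skin. Its spleen values were 278, 534, 442 and 519 CPM. Each skin library was above each spleen library, with a fitted fold of 1.98 (log2 0.98 ± 0.27, SE; edgeR adjusted p = 0.0818). In GENCODE M21, 20.9% of the 75-base stretches of its coding transcripts also occur in transcripts of Phykpl, so part of its reads can be shared with that gene.

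Hnrnpc, which binds uridine tracts of nascent transcripts, stood at 993, 602, 587 and 668 CPM in skin and 336, 481, 486 and 505 CPM in spleen. The lowest skin and highest spleen values were close, and the log2 fold change was 0.66 (95% interval 0.09 to 1.23; edgeR adjusted p = 0.263). Hnrnpd, which encodes AUF1, a binder of AU-rich elements that govern mRNA decay, stood at 70.7, 98.5, 58.6 and 75.1 CPM in skin. In spleen it stood at 133, 138, 122 and 171 CPM. The separation was complete, yet the interval of its log2 fold change (-2.57 to 0.77) included 0. Hnrnpr stood at 0, 45.8, 12.9 and 93.3 CPM in skin and at 150.5, 122, 99.2 and 158 CPM in spleen, with skin replicate 4 close to spleen replicate 3.

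Hnrnph2 and Hnrnph1 are paralogs whose products bind runs of guanine in RNA. Reads were 75 bases long, and expected counts share out by estimation a read that matches several genes. The coding sequences of Hnrnph1 and Hnrnph2, 1350 bases each in GENCODE M21, were set side by side. This shows how far a read can tell them apart. They were 85.9% identical with 190 mismatches. Of 1276 windows of 75 bases, 0 were identical in both genes, and the windows held 4 to 18 mismatches with a median of 11. The first of the windows with the fewest mismatches, bases 346 to 420 of both coding sequences counted from the A of the start codon, is printed 5′ to 3′ with the mismatched bases in capitals.
Hnrnph1: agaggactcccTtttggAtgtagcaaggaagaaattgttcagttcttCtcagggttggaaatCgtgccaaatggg
Hnrnph2: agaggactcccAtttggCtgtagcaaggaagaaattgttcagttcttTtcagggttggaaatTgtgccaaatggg

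So even the most alike stretch of the coding sequences differed at 4 positions. Hnrnph2 also shared 11.1% of its stretches with Gm8775. Hnrnph2 stood at 307, 379.6, 285 and 349 CPM in skin and 70.9, 70.6, 229.9 and 199 CPM in spleen. All skin values were above all spleen values, with spleen replicates 1 and 2 lowest (log2 fold change 1.21, 95% interval 0.10 to 2.33; edgeR adjusted p = 0.32).

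Hnrnph1 stood at 195, 96.2, 118 and 194 CPM in skin and 124, 91.0, 82.5 and 217 CPM in spleen. Its tissues overlapped throughout (log2 fold change 0.23, 95% interval -1.20 to 1.66). The ratio of Hnrnph2 to Hnrnph1 CPM, which does not depend on the scaling of a library, was 1.57, 3.95, 2.41 and 1.80 in skin replicates 1 to 4. It was 0.574, 0.776, 2.79 and 0.918 in spleen replicates 1 to 4. Spleen replicate 3 lay within the skin range and the other spleen libraries below it. Hnrnph3, also of this group, had counts in skin replicates 1 and 4 (120.2 and 59.7 CPM) and stood at 0.487 to 33.0 CPM in spleen.

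The 3 hnRNP genes with the highest CPM overlapped between the tissues. Hnrnpf, a further binder of guanine runs, stood at 2004, 1376, 1648 and 1739 CPM in skin and 1200.3, 1898, 1435 and 1635 CPM in spleen. The values interleaved, and the log2 fold change of 0.13 had an interval from -0.28 to 0.55. Of its 75-base stretches, 55.9% also occur in other genes of GENCODE M21, led by the predicted gene Gm6430.

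Hnrnpa2b1, which sorts RNAs for transport and vesicles, stood at 1726, 895, 864 and 899 CPM in skin and 881, 1224, 945 and 1009.9 CPM in spleen. Skin replicate 1 stood above the other 7 libraries, and without it the log2 fold change went from 0.11 to -0.23. Hnrnpk, a binder of cytosine-rich RNA and DNA, stood at 1045, 1019, 1594 and 579.9 CPM in skin. In spleen it stood at 1025, 906, 1418 and 1349.7 CPM. Skin held both its highest and its lowest value, and the log2 fold change was -0.15 (95% interval -0.83 to 0.53).

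The remaining hnRNP genes all overlapped between the tissues. Hnrnpm, a binder of GU-rich RNA, stood at 233 to 396 CPM in skin and 275 to 661 CPM in spleen (log2 fold change -0.75, 95% interval -1.52 to 0.02). Hnrpll, the regulator of Ptprc exons, stood at 46.9, 0, 0 and 45.3 CPM in skin and 85.8, 121, 40.8 and 87.4 CPM in spleen. Its interval ran from -6.89 to 3.17 on the log2 scale. Ptprc itself stood at 392 to 1008 CPM in skin and 652 to 1120 CPM in spleen, and gene counts do not show its exon use.

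Hnrnpa1, a shuttling repressor of exons, stood at 172, 2.20, 189.6 and 148 CPM in skin and 54.0 to 199 CPM in spleen. Of its stretches, 44.8% occur in other genes, mostly predicted ones, and Hnrnpa3, at 0.303 to 126 CPM in skin and 45.04 to 182 CPM in spleen, shared 26.9%. Part of the reads of both may thus be shared, with the same limits as for Srsf4. Hnrnpl, a regulator of exons in T cells and the paralog of Hnrpll, stood at 97.5 ± 38.3 and 110.9 ± 25.1 CPM, and Hnrpdl at 97.6 ± 37.8 and 98.7 ± 35.3 CPM (SD, n = 4 each). Hnrnpul1, Hnrnpul2 and Hnrnpa0 were low, at no more than 56.0, 23.1 and 26.6 CPM in any library.

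Among the SF3 genes, Sf3b1, the branch point clamp of the U2 particle, stood at 1113, 700.4, 1506 and 1893 CPM in skin. Its spleen values were 1037, 867, 444 and 780.1 CPM. Skin replicates 1, 3 and 4 were above all spleen libraries and skin replicate 2 was within their range (log2 fold change 0.74, 95% interval -0.06 to 1.53).

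Sf3b3, a scaffold of the same complex, went the other way, at 0, 115, 0 and 243 CPM in skin and 479, 316, 551 and 277 CPM in spleen. Every skin value lay below every spleen value, and both zeros were in skin. The interval of its log2 fold change (-2.18) ran from -6.51 to 2.15. Sf3b2 stood at 48.1, 423, 148 and 50.6 CPM in skin and 453, 372, 307 and 225 CPM in spleen, with skin replicate 2 inside the spleen range and the other 3 below it. Without that library its log2 fold change went from -1.02 to -2.08.

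For Sf3b4 the skin mean was 274 ± 153 CPM and the spleen mean 160.4 ± 29.1 CPM (SD, n = 4 each), and 43.8% of its stretches occur in other genes. Sf3b5, a small subunit, stood at 92.2 ± 42.1 and 114.6 ± 29.4 CPM. Of the SF3A complex, which joins U2 after SF3B, Sf3a1 stood at 163, 0, 200.1 and 175 CPM in skin and 91.7 to 147 CPM in spleen. Sf3a3 stood at 113, 207, 0 and 80.5 CPM in skin and 140.4 to 278 CPM in spleen, and Sf3a2 at 0 to 11.96 and 11.2 to 23.2 CPM. Each of the 3 was thus missing from at least 1 skin library and present in all spleen libraries.

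Further genes of the splicing machinery were taken from 7 lists holding 156 genes, of which 142 were tested. None was higher and 1 lower in skin. That gene was Usp39, a protein of the tri-snRNP that is needed for its joining to the spliceosome. It stood at 0 in all 4 skin libraries and at 88.4, 72.5, 135 and 114 CPM in spleen. It was called lower at an edgeR adjusted p of 0.0473. Its spleen mean of 102 CPM was 265-fold a skin floor of 3 counts per library (0.387 CPM). That figure is not from the fit and covers counting error only. Among genes at 100 to 200 CPM in the other libraries of the tissue, 15.2% of skin values were 0. Usp39 entered the test through spleen alone. It was 1 of 231 tested genes at 0 in all 4 skin libraries, of which 182 were called lower, beside 14 tested genes at 0 in all 4 spleen libraries. Its adjusted p was shared by 195 genes, 128 of them at 0 in all skin libraries. The call held in 6 of 17 alternatives, among them DESeq2 (adjusted p = 3.28e-10). It was lost in each of the 8 fits without 1 library (adjusted p = 0.0535 to 0.137), with a block on the replicate number (0.355), with no filter (0.0895) and without the 50 most abundant genes (0.0502). The median log2 fold change of the 142 genes was -0.20, and 0.704% were called, beside 5.43% of all genes tested. Of the 142, 19 did not overlap between the tissues (13.4%), 6 of them higher and 13 lower in skin. That share was below the 19.5% of all genes tested, 6.11% higher and 13.4% lower.

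By list, the Sm and small nuclear ribonucleoprotein core had 2 of 19 tested genes above 0 and 17 below, with a median of -1.27. Of these 19, 0 were called, and 5 lay lower and 1 higher without overlap. Of all 6920 genes tested, 4000 were below 0, with a median of -0.29, and whether the list differs from them was not tested. The 1 higher was Snrpb, which encodes the core protein SmB, at 642 to 996 CPM in skin and 297 to 582 CPM in spleen (edgeR adjusted p = 0.174). Splice site recognition (7 tested), SR-related proteins (19), SR kinases and import (10), other splicing regulators (37) and exon junction and export factors (23) had 0 called. Their medians were -0.04, -0.42, 0.05, 0.05 and -0.21. Helicase and PRP factors, the list of Usp39, had 26 not called and a median of -0.20.

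Clk1, a kinase that phosphorylates SR proteins, was picked after its values were seen. It stood at 808, 1596, 280.0 and 428 CPM in skin and 81.1, 175, 75.8 and 254 CPM in spleen. All skin values were above all spleen values, the nearest being skin replicate 3 and spleen replicate 4, and it was not called (log2 fold change 2.41 ± 0.63, SE; edgeR adjusted p = 0.0656).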

How the data were processed

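RNA of 4 skin and 4 spleen iNKT libraries was sequenced as 75 bp pairs after SMART-Seq v4 cDNA synthesis, which does not mark the strand, per the labels' protocols. The authors deposited RSEM expected counts, 1 value per gene and library, per the submitters' processing notes, which also name FastQC, DESeq2 1.16.1 and mm9. Which aligner and annotation release were used is not given in the sources used here. Columns were matched to libraries by the labels, and 0 sample columns were unused. Between 12.3% and 19.4% of values were not whole, and all were rounded.

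Genes passing filterByExpr (6920) were scaled by TMM and fitted with edgeR 4.0.16 (robust quasi-likelihood, tissue only; limma 3.58.1, R 4.3.3), with Benjamini-Hochberg adjustment over all of them at 0.05. CPM use TMM-scaled totals, in which 3 counts are 0.292 to 0.454 CPM. The fit was tested on simulated data in which changes of several sizes were planted. Over all sizes together, most of the changed genes missed the threshold at the estimated spread. The outcome by size is not given here. Members and lists were chosen with earlier results of these data known. Values in all libraries are given for called members, for those without overlap and at least 20 CPM in the higher tissue, and for the 3 with the highest mean CPM per class; members shown beyond this rule were chosen after their values were seen. Shared 75-base stretches were counted on both strands of GENCODE M21 (GRCm38) transcripts; the build differs from mm9, so no coordinates are given.

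Alternatives were DESeq2's size factors and upper-quartile scaling, limma-voom with quality weights, DESeq2 1.42.0, no filter, a filter of 5 CPM in 4 libraries, rounding down, a block on the replicate number, each library left out, and a fit without the 50 most abundant genes. A filter that asks for a count in 3 or more libraries per tissue was chosen after seeing the data.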

Additional observations from a re-analysis of the deposited data

Results flagged for a closer look

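In 84 groups of 4 libraries (39 genes and 3 class sums in each tissue), 6 had 1 library far from the other 3 by Dixon's test at its critical value for 95% confidence; chance flags about 1 in 20 such groups. In skin replicate 1, Hnrnpa2b1 stood at 1726 CPM beside 864 to 899 CPM in the other skin libraries, and Srsf3 at 1420.0 CPM beside 403 to 527 CPM. In skin replicate 3, Hnrnpul2 stood at 5.90 CPM beside 0 to 0.110 CPM. In spleen replicate 1, Hnrnpc stood at 336 CPM beside 481 to 505 CPM. In spleen replicate 4, Sf3b4 stood at 117 CPM beside 172 to 179 CPM, and Srsf7 at 379.9 CPM beside 275 to 280.0 CPM.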

How the results depend on the processing

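The count of called members was 0 higher and 0 lower in each of the 8 fits without 1 library and under 8 of the other 10 alternatives. The exceptions were the filter of 5 CPM in 4 libraries, with 1 lower (Hnrnpu), and limma-voom, with 1 higher (Hnrnpab, adjusted p = 0.0294) and 1 lower (Hnrnpu). Over all alternatives the adjusted p of Hnrnpu was 0.0293 to 0.499 and that of Hnrnpab 0.0294 to 0.544, and 31 of the 39 members kept the sign of their fold change. Without 1 library, log2 fold changes ranged from -0.23 to 0.20 for Hnrnpa2b1, from -0.459 to 0.0158 for Hnrnpk and from -0.0547 to 0.576 for Srsf2, which stood at -0.0525 with limma-voom. Over all genes, 128 were called higher and 248 lower. DESeq2 called 201 and 1179, limma-voom 209 and 519, the fit without the 50 most abundant genes 56 and 48, and the replicate block 36 and 14. No filter left 48 lower and detection in at least 3 libraries of each tissue 42 lower. Without 1 library there were 47 to 102 higher and 17 to 111 lower. The cause was not tested. Deviations from the tissue mean had correlations of 0.00726, 0.0105, 0.00175 and 0.00431 between same-numbered libraries, for numbers 1 to 4. Those of differently numbered pairs ran from -0.0270 to 0.0435. In libraries this variable, such values cannot show whether same-numbered libraries share an animal. The block pairs libraries by number only, and it changed no call of a member.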
